A study of Mus musculus with 6 samples.

Results

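Chemokine ligands and their receptors were followed in livers of mice lacking HMGB2 and in wild-type livers. The members were all probe sets of the deposited table that carry a single gene symbol beginning with Ccl, Cxcl, Ccr or Cxcr and a digit. This gave 54 probe sets for 50 genes, of 22203 probe sets tested in all. They comprise 37 probe sets for 33 ligand genes and 17 probe sets for 17 receptor genes. Another 10 rows that join a chemokine symbol with other symbols, among them the copies of Ccl21 and Ccl27b, fall outside this choice.

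Chemokines are small secreted or membrane-bound proteins that guide leukocytes by binding G protein-coupled receptors on their surface. CC and CXC ligands are named for the spacing of their first cysteines, and CXC ligands with a Glu-Leu-Arg motif ahead of those cysteines (ELR ligands) mainly draw neutrophils. In liver, Kupffer cells, sinusoidal endothelium, stellate cells and hepatocytes produce chemokines, while most of the receptors are carried by resident and passing leukocytes. In whole liver, a lower level of a leukocyte receptor can stand for fewer cells of that type or for less RNA per cell, and these cannot be told apart here.

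The samples were livers of male C57BL/6 mice aged 8 weeks, 3 HMGB2-KO and 3 WT, each hybridised to a Clariom S mouse array. The labels mention no treatment, and do not say how or in which cells Hmgb2 was deleted. The HMGB2 protein binds and bends DNA in chromatin, and the arrays served as a search for genes tied to its expression. The titles number the livers within each genotype without saying that each came from a separate mouse, so a p-value here reflects only how far these livers differ, and some of that may be technical.

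The deposited values are read as log2 values centred gene by gene, so a value of 0 is a reference point set for each gene. The arrays that set it are not stated. It is not the middle of these 6 livers for every gene, since all Cxcl9 values lay above 0 and all Ccl9 values below. Levels cannot be compared between genes, and whether a probe set lies above background in liver cannot be told. For the same reason the tissue could not be checked against its defining markers. WT liver 2 stood apart: its median over all probe sets was 0.26, against -0.05 to -0.04 in the HMGB2-KO livers and -0.04 to 0.01 in the other WT livers. The median probe set therefore lay at -0.12 in HMGB2-KO minus WT, and changes are given both as deposited and relative to this median gene. That step leaves the wider spread of WT liver 2, with a standard deviation of 0.53 against 0.32 to 0.36 in the other livers. Nor was the offset of WT liver 2 equal for all genes. The 6 hepatocyte markers had a deposited median of 0.08 there, or -0.17 relative to that array's median. Alb, with a deposited change of -0.02, stood at 0.11 relative to the median gene. A gene near 0 as deposited can thus read as raised relative to it. On centred arrays WT liver 2 still held the highest value for 23.0% of all probe sets and the lowest for 21.6%. Hmgb2 itself read -0.70, -0.38 and -0.48 in HMGB2-KO livers 1, 2 and 3, against 0.48, 0.62 and 0.38 in WT livers 1, 2 and 3. All HMGB2-KO values lay below all WT values. The change of Hmgb2 was -1.01 ± 0.15 (SE), at a limma unadjusted p of 0.00019 and an adjusted p of 0.469. The sources used here do not say whether its probes lie in the deleted part.

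The stretches of DNA ahead of 4 members described below are shown. Cxcr6 had the lowest change of all members, and Cxcl1, Cxcl2 and Cxcl3 are ELR ligands of 1 gene cluster that share promoter letters. Whether the changes of these ligands differ from each other was not tested. Each stretch is the 250 bases that end just before the annotated transcript start in RefSeq, build GRCm38.p6, on the plus strand. Capitals mark matches to the NF-kappaB consensus motif of 10 bases on either strand and to the TATA motif TATAAA.
Cxcr6, chr9:123806227-123806476: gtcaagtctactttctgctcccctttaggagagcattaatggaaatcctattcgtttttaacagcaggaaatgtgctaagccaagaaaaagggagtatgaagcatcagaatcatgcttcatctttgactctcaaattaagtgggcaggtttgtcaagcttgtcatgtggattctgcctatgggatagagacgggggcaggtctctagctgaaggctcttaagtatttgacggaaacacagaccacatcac
Cxcl1, chr5:90890995-90891244: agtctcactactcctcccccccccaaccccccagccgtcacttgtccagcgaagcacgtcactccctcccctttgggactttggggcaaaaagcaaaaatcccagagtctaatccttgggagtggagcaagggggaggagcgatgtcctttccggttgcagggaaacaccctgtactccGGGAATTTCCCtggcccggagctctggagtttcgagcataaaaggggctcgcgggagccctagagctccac
Cxcl2, chr5:90903649-90903898: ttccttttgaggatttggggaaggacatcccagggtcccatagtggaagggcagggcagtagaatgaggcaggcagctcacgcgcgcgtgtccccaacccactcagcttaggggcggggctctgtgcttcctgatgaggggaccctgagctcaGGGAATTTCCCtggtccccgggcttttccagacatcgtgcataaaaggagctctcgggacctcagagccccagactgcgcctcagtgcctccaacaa
Cxcl3, chr5:90785851-90786100: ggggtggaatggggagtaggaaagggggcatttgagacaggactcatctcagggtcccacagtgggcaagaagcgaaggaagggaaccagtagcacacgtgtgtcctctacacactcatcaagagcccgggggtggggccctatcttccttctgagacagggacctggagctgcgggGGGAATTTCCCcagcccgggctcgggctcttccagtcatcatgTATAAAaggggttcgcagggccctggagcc

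The run of capitals shared by Cxcl1, Cxcl2 and Cxcl3 holds 2 overlapping matches to the motif, which begin at positions -71 and -70 from the start in Cxcl1, -97 and -96 in Cxcl2, and -73 and -72 in Cxcl3. Of the 50 member genes, 35 had an entry in the RefSeq promoter table, with 39 start regions. The NF-kappaB motif was found in 10 of these 39 (25.6%), against 7.25% of all 32851 start regions of the same length. By class it was found in 7 of 25 ligand regions (28.0%) and 3 of 14 receptor regions (21.4%). TATAAA, on either strand, was found in 8 of 25 ligand regions (32.0%) and 2 of 14 receptor regions (14.3%), against 12.4% of all regions. The interferon response motif, searched on both strands, was found in 3 of 25 ligand regions (12.0%), those of Cxcl10, Cxcl14 and Ccl19. It was found in 0 of 14 receptor regions and in 2.98% of all regions. These matches describe letters in the windows and say nothing of binding.

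Across the family, HMGB2-KO and WT livers differed little in array signal. limma called 0 of 54 members at an adjusted p of 0.05, as it called 0 of all 22203 probe sets (0.0%). At an unadjusted p under 0.05 stood 4 of 54 members (7.41%), against 4.92% of all probe sets. All 4 were lower in HMGB2-KO (Cxcr6, Cxcl1, Cxcl17 and Ccl25) and 0 were higher, against 4.85% of all probe sets lower and 0.0721% higher. Among these, 1 member, the lower Cxcr6, also passed a fold limit of 1.5, against 1.62% of all probe sets (1.6% lower, 0.018% higher). With each array centred on its median, 2 members were lower at that p (Cxcr6 and Cxcl1) and 1 higher (a Ccl19 probe set), against 2.8% and 1.03% of all probe sets. Without WT liver 2, 1 member was lower (Cxcr6) and 0 higher, against 2.48% and 0.959%. Every HMGB2-KO value lay below every WT value for 6 members (11.1%), the 4 above with Cxcl5 and Ccr1, against 10.9% of all probe sets. The reverse held for 0 members, against 0.779% of all probe sets. The members' shares are thus close to those of the whole array. WT liver 2 had the highest deposited value of the 6 livers for 19 of 37 ligands (51.4%) and 13 of 17 receptors (76.5%), against 60.1% of all probe sets.

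**Figure D1:**
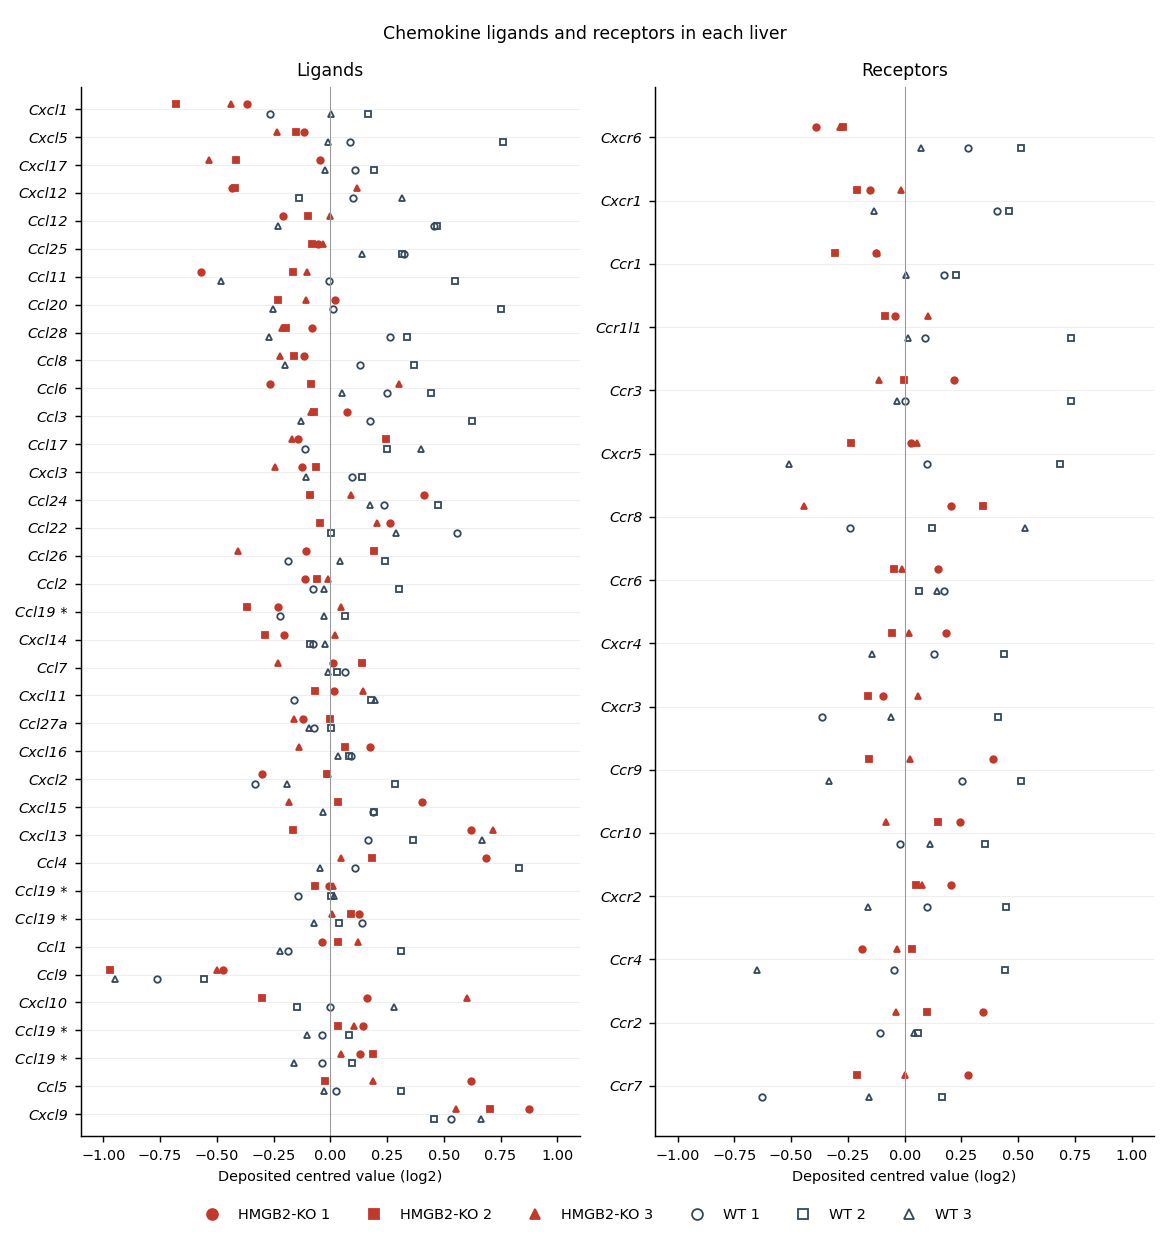
Deposited centred log2 values of 53 of the 54 member probe sets in each liver, ligands in the left panel and receptors in the right, with HMGB2-KO livers as filled red symbols above WT livers as open symbols in each row, ordered by change from the lowest at the top; asterisks mark the 5 Ccl19 probe sets. All 3 HMGB2-KO values of Cxcr6 lie between -0.39 and -0.27, below the WT values of 0.07 to 0.51, while most other rows overlap.

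Intervals on the changes were wide enough to hold moderate differences in array signal but none beyond 2-fold. For scale, the signal of the deleted gene, Hmgb2, changed by -1.01, which is itself about 2-fold. The intervals do not bound the RNA, since a probe set near background could hide a larger change and brightness could not be checked. The 95% interval of the limma fit stayed within a 2-fold change in either direction for all 54 members, and within a 1.5-fold change for 26 of them. The lowest bound was -0.97, for Cxcr6, and the highest 0.77, for Ccr7. For 34 members the change was smaller than its own standard error.

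Ligands and receptors, set side by side, had nearly the same median. The median ligand stood at 0.00 relative to the median gene and the median receptor at 0.03, a gap of -0.03. Of the ligand probe sets 19 of 37 lay above the median gene, as did 11 of 17 receptors. Relative to each array's own median, the ligand medians were -0.01, -0.02 and 0.04 in HMGB2-KO livers 1, 2 and 3, and 0.05, -0.01 and 0.02 in WT livers 1, 2 and 3. Receptor medians were 0.18, -0.01 and 0.03 in HMGB2-KO livers 1, 2 and 3, and 0.08, 0.19 and -0.01 in WT livers 1, 2 and 3. The genotypes overlapped in both classes. Among HMGB2-KO livers the median standard deviation was 0.12 for receptors, 0.16 for ligands and 0.17 over all probe sets. Among WT livers it was 0.36 for receptors, 0.20 for ligands and 0.23 over all probe sets. These are deposited values, in which WT liver 2 was the highest for 76.5% of receptors and 60.1% of all probe sets. The part of that liver in the spread was not tested.

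**Figure D2:**
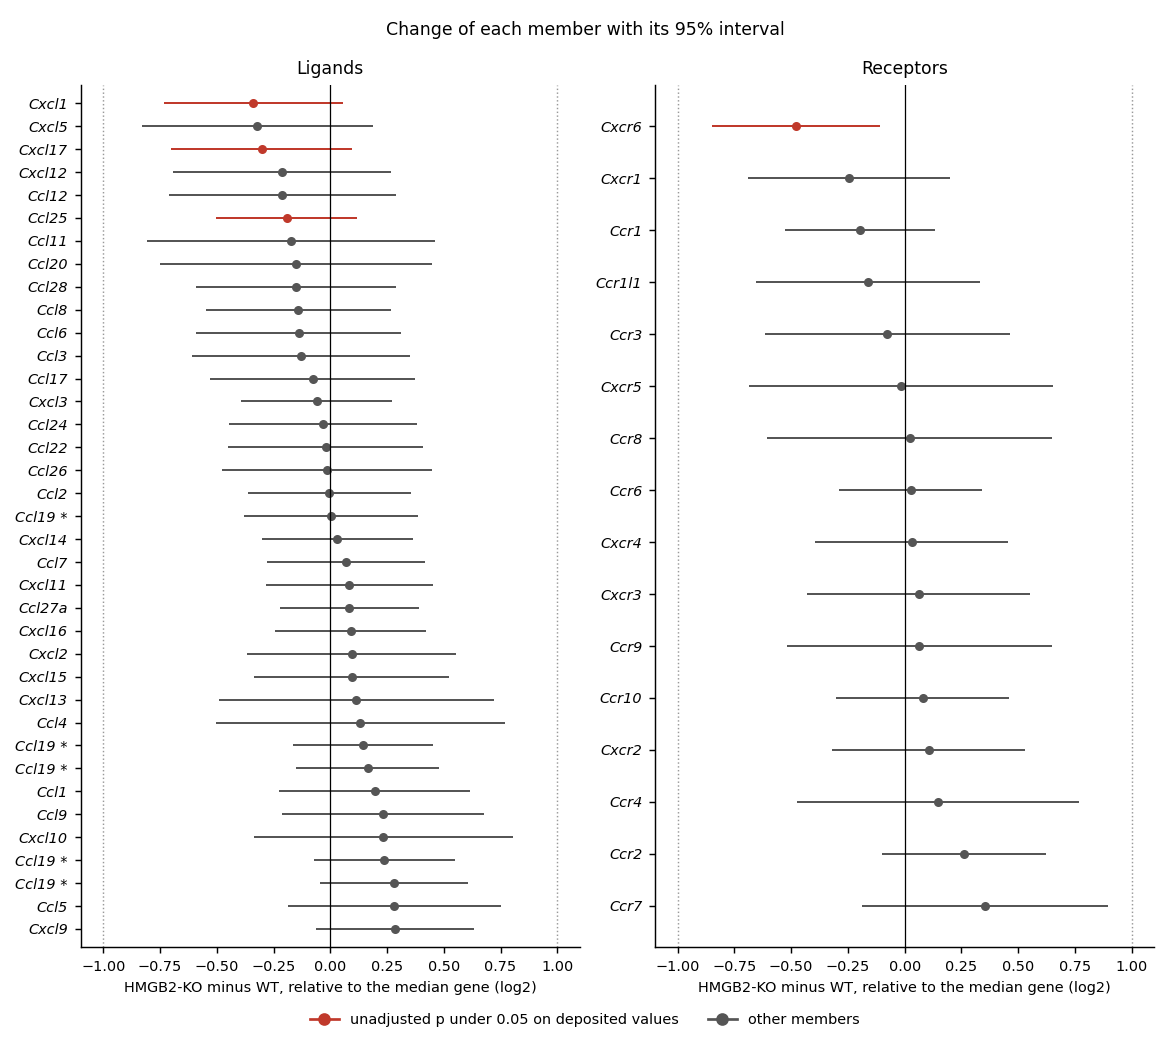
HMGB2-KO minus WT of 53 of the 54 member probe sets, relative to the median gene on the log2 scale, with the 95% interval of the limma fit as bars; dotted lines mark a 2-fold difference and red marks an unadjusted p under 0.05 on deposited values. Cxcr6 at -0.48 is the lowest receptor and Ccr7 at 0.35 the highest, and all intervals drawn stay inside the dotted lines.

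Among the receptors, Cxcr6 stood out by its spacing. It is carried by natural killer T cells, which patrol the liver sinusoids in mice, and by other resident lymphocytes. Cxcr6 read -0.39, -0.27 and -0.29 in HMGB2-KO livers 1, 2 and 3, against 0.28, 0.51 and 0.07 in WT livers 1, 2 and 3. All HMGB2-KO livers were lower than any WT liver, and the HMGB2-KO values were the more tightly grouped. HMGB2-KO minus WT came to -0.60 ± 0.16 (SE, 3 livers of each genotype), which is 1.52-fold lower, at a limma unadjusted p of 0.00538 and an adjusted p of 0.852. Relative to the median gene it was -0.48, with a 95% interval of -0.84 to -0.11. Without WT liver 2 the change was -0.49.

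Cxcl16, the membrane-bound ligand of Cxcr6 made by sinusoidal endothelium and macrophages, overlapped between genotypes. It read 0.18, 0.07 and -0.14 in HMGB2-KO livers 1, 2 and 3, against 0.09, 0.08 and 0.03 in WT livers 1, 2 and 3. The WT values lay inside the HMGB2-KO range. The change was -0.03 ± 0.14 (SE), with a 95% interval of -0.36 to 0.29. Lymphocyte markers are given beside Cxcr6 because T and natural killer cells carry it. An unadjusted p under 0.05 was reached by 0 of 5 measured T cell markers and 0 of 5 natural killer cell markers. Of all probe sets, 4.92% reached it. The T cell list median, relative to each array's median, ran from 0.01 to 0.17 in HMGB2-KO livers and from 0.01 to 0.11 in WT livers. That of the natural killer cell list ran from 0.03 to 0.12 in HMGB2-KO livers and from -0.04 to 0.23 in WT livers. Of single markers, Cd3d, a subunit of the T cell receptor complex, stood at -0.25 ± 0.16 (SE) and Gzma, a granzyme of cytotoxic lymphocytes, at -0.32 ± 0.16. The T cell coreceptor Cd4 stood at 0.15 ± 0.23 and Prf1, the perforin gene, at 0.16 ± 0.29. In change, 3 of 5 T cell markers and 3 of 5 natural killer cell markers lay above the median gene. The part of these cells in the Cxcr6 difference was not tested.

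The next lowest receptors belong to neutrophils and macrophages. Cxcr1, a neutrophil receptor, read -0.15, -0.21 and -0.02 in HMGB2-KO livers 1, 2 and 3, against 0.41, 0.46 and -0.14 in WT livers 1, 2 and 3. WT liver 3 lay within the HMGB2-KO values, and the change of -0.37 ± 0.19 (SE) ran from -0.56 to -0.26 when single livers were left out, reaching -0.56 without WT liver 3. Ccr1, a receptor of macrophages and neutrophils, read -0.12, -0.31 and -0.12 in HMGB2-KO livers 1, 2 and 3, against 0.17, 0.23 and 0.01 in WT livers 1, 2 and 3. The groups did not overlap, and the change was -0.32 ± 0.14 (SE), or -0.20 relative to the median gene, at a limma unadjusted p of 0.0527. Ccr1l1, a Ccr1-like gene next to it, stood at -0.29 ± 0.21 (SE), or -0.06 without WT liver 2.

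The receptors with the highest changes were Ccr7, Ccr2 and Ccr4, and each overlapped between genotypes. Ccr7, the lymph node receptor, read 0.28, -0.21 and 0.00 in HMGB2-KO livers 1, 2 and 3, against -0.63, 0.17 and -0.16 in WT livers 1, 2 and 3. WT liver 1 was the lowest and the other livers overlapped. Its change of 0.23 ± 0.23 (SE) was 0.35 relative to the median gene, and ran from 0.02 to 0.42 when single livers were left out. Ccr2, the receptor of inflammatory monocytes, stood at 0.14 ± 0.15 (SE), with 0.35, 0.10 and -0.04 in HMGB2-KO livers 1, 2 and 3 against -0.11, 0.06 and 0.04 in WT livers 1, 2 and 3. HMGB2-KO liver 1 was the highest and the others overlapped. Ccr4, carried by type-2 helper and regulatory T cells, stood at 0.02 ± 0.26 (SE), with WT livers as far apart as -0.65 and 0.44.

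Cxcr2, Cxcr4, Cxcr3, Ccr6, Ccr9, Cxcr5, Ccr3, Ccr8 and Ccr10 differed by less than their standard errors, with Cxcr2, the main neutrophil receptor of ELR ligands, at -0.02 ± 0.18 (SE). Cxcr4, the receptor of Cxcl12 on many leukocytes, stood at -0.09 ± 0.18, and Cxcr3, carried by activated T cells, at -0.06 ± 0.21. Ccr6, the Ccl20 receptor, stood at -0.10 ± 0.13. Ccr9, the gut-homing receptor, stood at -0.06 ± 0.25, and Cxcr5, the B cell follicle receptor, at -0.14 ± 0.29. Ccr3, the eotaxin receptor of eosinophils, stood at -0.20 ± 0.23, Ccr8 at -0.10 ± 0.27 and Ccr10 at -0.05 ± 0.16 (SE). For Cxcr2, Cxcr3, Cxcr4, Cxcr5, Ccr3, Ccr9 and Ccr10 the sign turned positive without WT liver 2.

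Among the ELR ligands, which draw neutrophils through Cxcr2, Cxcl1 and Cxcl5 stood lower in all HMGB2-KO livers while Cxcl2, Cxcl3 and Cxcl15 overlapped. Cxcl1 read -0.37, -0.68 and -0.44 in HMGB2-KO livers 1, 2 and 3, against -0.27, 0.17 and 0.00 in WT livers 1, 2 and 3. The gap between the nearest livers, HMGB2-KO 1 and WT 1, was small next to the spread within each genotype. The change was -0.46 ± 0.17 (SE), a 1.38-fold lower level at a limma unadjusted p of 0.0261 and an adjusted p of 0.852, and -0.34 relative to the median gene. Cxcl5 read -0.11, -0.15 and -0.23 in HMGB2-KO livers 1, 2 and 3, against 0.09, 0.76 and -0.01 in WT livers 1, 2 and 3. Its change of -0.44 ± 0.22 (SE) was -0.20 without WT liver 2, the high reading. Cxcl2 read -0.30, -0.02 and -0.01 in HMGB2-KO livers 1, 2 and 3, against -0.33, 0.28 and -0.19 in WT livers 1, 2 and 3, a change of -0.03 ± 0.20. Cxcl3 stood at -0.18 ± 0.14 (SE) and Cxcl15, a ligand best known from mouse lung, at -0.03 ± 0.18. Cxcl1 and Cxcl2 share the same 11 capital letters in the stretches above. No test of the difference between members was made, nor of any part of these letters in their values.

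Of 7 measured neutrophil markers, 6 lay below the median gene as deposited and 5 without WT liver 2. In 1 of the 7, against 4.92% of all probe sets, the unadjusted p was under 0.05. That was Mmp8, a neutrophil collagenase, with -0.14, -0.22 and -0.38 in HMGB2-KO livers 1, 2 and 3 against 0.07, 0.24 and 0.25 in WT livers 1, 2 and 3. The groups did not overlap, and its change was -0.44 ± 0.14 (SE). Retnlg, a neutrophil resistin-like gene, stood at -0.39 ± 0.19, or -0.24 without WT liver 2, and the granule gene Ngp at -0.24 ± 0.15, or -0.15 without that liver. The list median relative to the median gene was -0.12, or -0.08 without WT liver 2. The neutrophil list median, relative to each array's median, ran from -0.08 to 0.03 in HMGB2-KO livers and from 0.01 to 0.20 in WT livers. Its part in the Cxcl1, Cxcl5 and Cxcr1 values was not tested.

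The ligands of Cxcr3, which interferon gamma induces and which draw T cells, lay above the median gene in change, with overlapping genotypes. Cxcl9 read 0.87, 0.70 and 0.55 in HMGB2-KO livers 1, 2 and 3, against 0.53, 0.45 and 0.66 in WT livers 1, 2 and 3. It was the only member with all 6 values above the deposited zero, and its change was 0.16 ± 0.15 (SE), or 0.28 relative to the median gene. Cxcl10 read 0.16, -0.30 and 0.60 in HMGB2-KO livers 1, 2 and 3, against 0.00, -0.15 and 0.28 in WT livers 1, 2 and 3. In both genotypes liver 3 was the highest and liver 2 the lowest, and the change of 0.11 ± 0.24 was far smaller than the span among the HMGB2-KO livers. Cxcl11, a pseudogene in the RefSeq annotation of the C57BL/6J genome, stood at -0.04 ± 0.16.

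The other CXC ligands gave 1 lower member and several with wide spread. Cxcl17, a mucosal ligand, read -0.05, -0.42 and -0.54 in HMGB2-KO livers 1, 2 and 3, against 0.11, 0.19 and -0.02 in WT livers 1, 2 and 3. HMGB2-KO liver 1 came close to WT liver 3, and with each array centred on its median the groups overlapped. The change was -0.43 ± 0.17 (SE) at a limma unadjusted p of 0.0376, or -0.30 relative to the median gene. Cxcl12, a stromal ligand that holds leukocytes through Cxcr4, read -0.43, -0.42 and 0.12 in HMGB2-KO livers 1, 2 and 3, against 0.10, -0.14 and 0.32 in WT livers 1, 2 and 3. HMGB2-KO liver 3 lay among the WT livers, and the change was -0.34 ± 0.20 (SE), or -0.52 without that liver. Cxcl13, the B cell ligand of Cxcr5, read 0.62, -0.16 and 0.71 in HMGB2-KO livers 1, 2 and 3, against 0.16, 0.36 and 0.67 in WT livers 1, 2 and 3. HMGB2-KO liver 2 stood alone below the others, and the change was -0.01 ± 0.26. Cxcl14 stood at -0.09 ± 0.14.

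**Figure D3:**
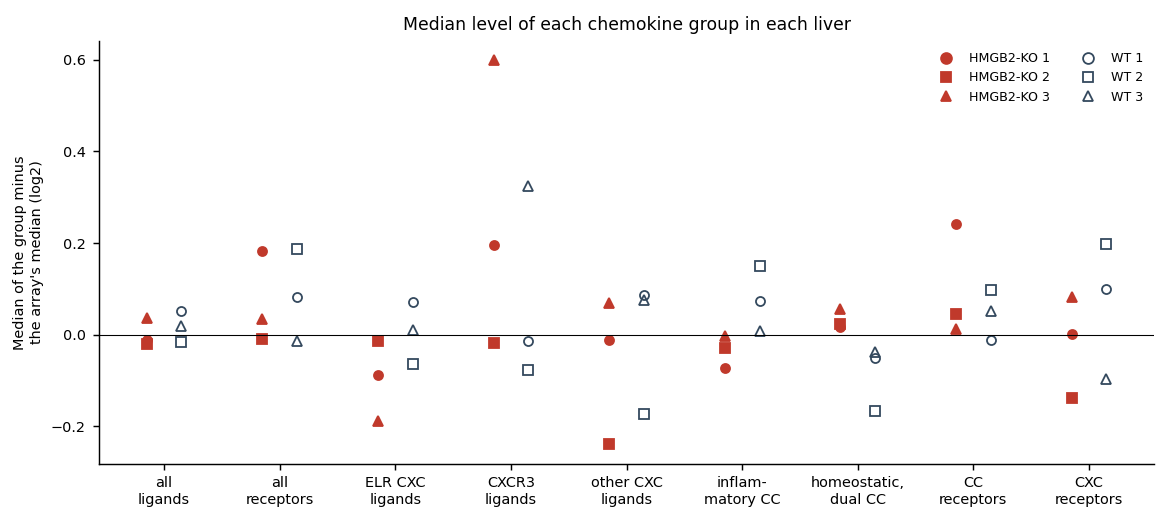
Median of each chemokine group minus the median of all probe sets on the same array (log2), with HMGB2-KO livers as filled red symbols left of the open WT symbols. The Cxcr3 ligands range from -0.02 to 0.60 in HMGB2-KO livers and from -0.08 to 0.32 in WT livers, and in both genotypes liver 3 is the highest.

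The inflammatory CC ligands, which recruit monocytes, macrophages and eosinophils, held 12 probe sets, of which 8 lay below the median gene, with a group median of -0.02 relative to it. None of the 12 reached an unadjusted p under 0.05 in limma, against 4.92% of all probe sets. Ccl2, the main monocyte attractant acting through Ccr2, read -0.11, -0.06 and -0.01 in HMGB2-KO livers 1, 2 and 3, against -0.08, 0.30 and -0.03 in WT livers 1, 2 and 3. The livers overlapped apart from WT liver 2, and the change of -0.13 ± 0.15 (SE) was -0.01 without it. Ccl12, a mouse monocyte attractant of the same gene cluster, stood at -0.34 ± 0.21, with -0.21, -0.10 and 0.00 in HMGB2-KO livers 1, 2 and 3 against 0.46, 0.47 and -0.23 in WT livers 1, 2 and 3. WT liver 3 was the lowest of all and the other WT livers the highest; without WT liver 3 the change was -0.57. Ccl11, an eotaxin that draws eosinophils through Ccr3, stood at -0.30 ± 0.27, or -0.03 without WT liver 2, and Ccl24, another eotaxin, at -0.16 ± 0.18.

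The other inflammatory CC ligands pointed in both directions. Ccl5, which T cells and natural killer cells release, had the highest change of the CC ligands with a single probe set, 0.16 ± 0.20 (SE), with 0.62, -0.02 and 0.19 in HMGB2-KO livers 1, 2 and 3 against 0.02, 0.31 and -0.03 in WT livers 1, 2 and 3. HMGB2-KO liver 1 set it apart, and without that liver the change was -0.02. Ccl4 read 0.69 in the same liver, against 0.83 in WT liver 2, and its change was 0.01 ± 0.27. Ccl9, a myeloid ligand of Ccr1 in mice, read -0.47, -0.97 and -0.50 in HMGB2-KO livers 1, 2 and 3, against -0.76, -0.55 and -0.95 in WT livers 1, 2 and 3. It was the only member with all 6 values below the deposited zero, and the genotypes overlapped at a change of 0.11 ± 0.19. Ccl6, its neighbour and another rodent ligand of Ccr1, stood at -0.26 ± 0.19, and Ccl3 at -0.25 ± 0.20, or -0.05 without WT liver 2.

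Among the homeostatic CC ligands, Ccl25 was the lower member. Ccl25, which draws Ccr9-bearing lymphocytes to thymus and small intestine, read -0.05, -0.08 and -0.03 in HMGB2-KO livers 1, 2 and 3, against 0.33, 0.32 and 0.14 in WT livers 1, 2 and 3. The groups did not overlap and the HMGB2-KO livers lay close together. The change was -0.32 ± 0.13 (SE), a 1.24-fold lower level at a limma unadjusted p of 0.0446, but -0.19 relative to the median gene with a 95% interval of -0.50 to 0.11. Ccl20, the ligand of Ccr6, stood at -0.28 ± 0.26, where WT liver 2 read 0.75 against -0.25 to 0.01 in the other WT livers, and without it the change was 0.01. Ccl22, a ligand of Ccr4, stood at -0.14 ± 0.18, and Ccl17, another, at -0.20 ± 0.19. Ccl28 stood at -0.28 ± 0.19 and Ccl27a at -0.04 ± 0.13, both ligands of Ccr10.

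Ccl19, which guides lymphocytes and dendritic cells through Ccr7, is represented by 5 probe sets, whose changes ran from -0.12 to 0.16. Ccl19 has near-identical copies in the mouse genome, so which copy each probe set reads is uncertain. With each array centred on its median, 2 of these probe sets read higher in every HMGB2-KO liver than in any WT liver, with centred changes of 0.23 and 0.27; as deposited the livers of both genotypes overlapped. On centred arrays 936 of all probe sets (4.22%) lay higher without overlap, against 2 of 54 members, both of them Ccl19. Lower without overlap on centred arrays were 5 of 54 members (Cxcr6, Cxcl1, Cxcl5, Ccl25 and Ccr1), against 5.57% of all probe sets.

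Members that lie next to each other in the genome stood on both sides of the median gene. On chromosome 9, in GRCm38.p6 gene order, Cxcr6 is followed by Xcr1, Ccr1, Ccr1l1, Ccr3 and Ccr2. Their changes relative to the median gene ran from -0.48 for Cxcr6 through -0.05, -0.20, -0.16 and -0.08 for Xcr1, Ccr1, Ccr1l1 and Ccr3 to 0.26 for Ccr2. In the CXC cluster of chromosome 5, Cxcl1 at -0.34 lies between Cxcl15 at 0.09 and Cxcl2 at 0.09. In the CC cluster of chromosome 11, Ccl2, Ccl7, Ccl11, Ccl12, Ccl8 and Ccl1 stood at 0.00, 0.07, -0.17, -0.21, -0.14 and 0.20 relative to the median gene.

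**Figure D4:**
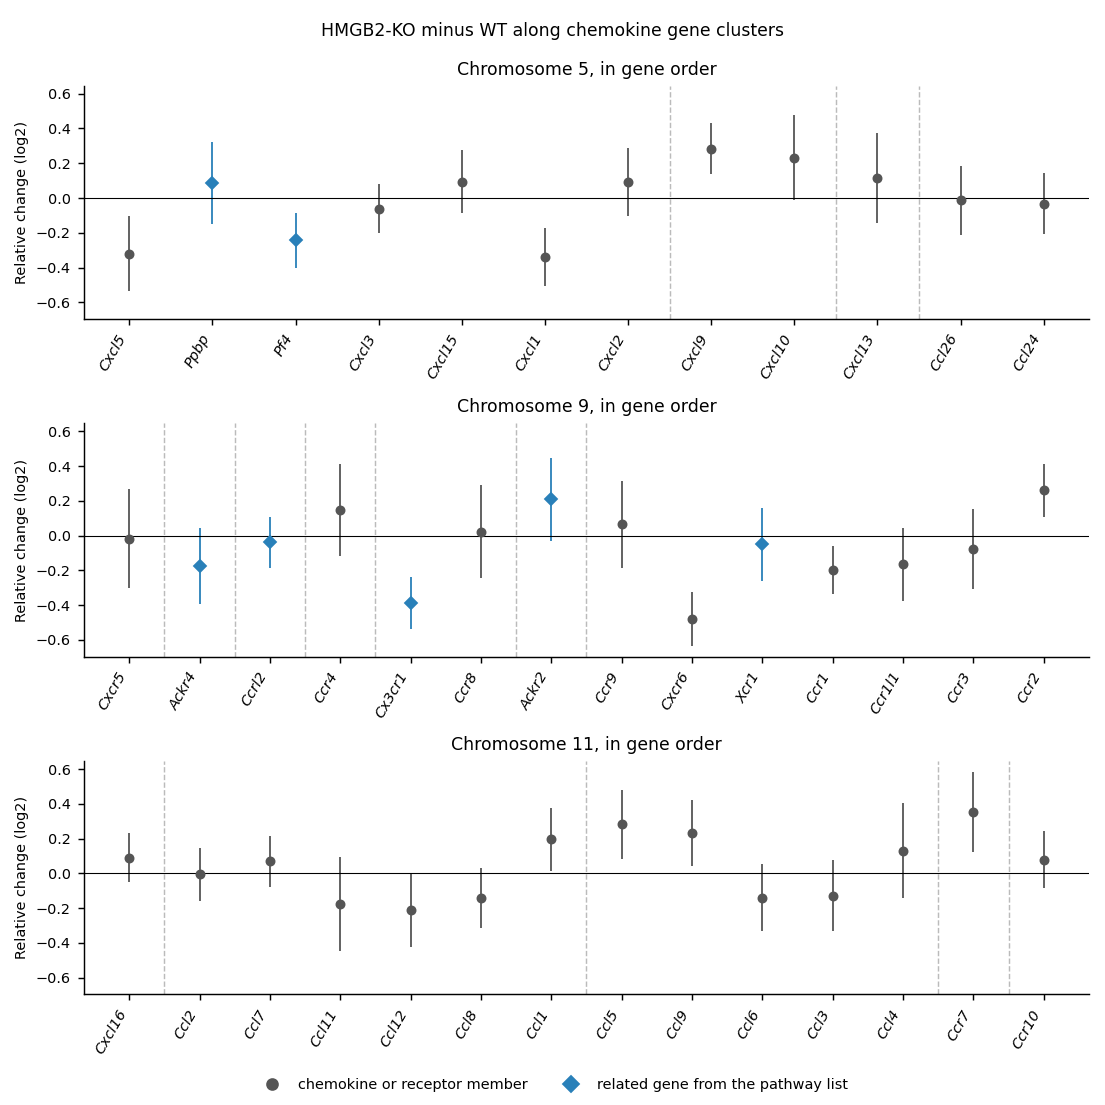
HMGB2-KO minus WT relative to the median gene (log2, bars are SE of the limma fit) for most members and related genes in their order along chromosomes 5, 9 and 11; positions are ranks, not distances, and dashed lines mark gaps of more than 5 coding genes. Cxcr6 at -0.48 and Ccr2 at 0.26 belong to the same run of receptor genes on chromosome 9.

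Chemokine genes of other families and atypical receptors gave 1 further low gene. Cx3cr1, the fractalkine receptor of monocytes and resident macrophages, read -0.30, 0.00 and -0.36 in HMGB2-KO livers 1, 2 and 3, against 0.30, 0.27 and 0.29 in WT livers 1, 2 and 3. The groups did not overlap, and the change was -0.51 ± 0.15 (SE) at a limma unadjusted p of 0.0093, or -0.52 without WT liver 2. With each array centred on its median the groups overlapped. It was the 1 of 11 genes in this list that reached an unadjusted p under 0.05, against 4.92% of all probe sets. Pf4, the platelet chemokine, stood at -0.37 ± 0.16 and Xcl1, a lymphocyte chemokine, at -0.37 ± 0.22, or -0.19 without WT liver 2. Over the list, the median stood at -0.05 relative to the median gene.

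Genes that act below or above the chemokines in the pathway were followed in 2 short lists. Of 23 measured genes of receptor signalling, 0 reached an unadjusted p under 0.05 in limma, against 4.92% of all probe sets. The middle change of these 23 lay 0.07 above the median gene. Arrb1, an arrestin that ends receptor signals, stood at -0.29 ± 0.16 (SE), the phospholipase gene Plcb2 at -0.28 ± 0.15 and the kinase gene Pik3cg at 0.22 ± 0.17. Of 25 genes of chemokine inducers and NF-kappaB control, among them cytokine and Toll-like receptor genes, 0 reached that unadjusted p, against the same 4.92%. Their list median was -0.01. Whether a count of 0 in lists this short differs from that share was not tested. Ager, a receptor for HMGB proteins, stood at -0.29 ± 0.13, Myd88, an adaptor of Toll-like receptors, at -0.30 ± 0.14, and the cytokine gene Il6 at -0.41 ± 0.24, or -0.16 without WT liver 2. All HMGB2-KO values lay below all WT values for 2 of the 25, Ager and Myd88, against 10.9% of all probe sets, and with each array centred on its median the Ager values overlapped.

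Markers of the cells that make or carry chemokines gave 1 further gene at an unadjusted p under 0.05, Spp1. Of all probe sets, 4.92% stood under that p. Kupffer cell and macrophage markers lay above the median gene in 8 of 8 as deposited and 7 of 8 without WT liver 2. Their median was 0.15 relative to it, with 0 of 8 at an unadjusted p under 0.05. This was not particular to them, since hepatocyte markers also lay above the median gene in 6 of 6. Against a change of 0 as deposited, 5 of 8 Kupffer cell and macrophage markers lay above and 3 below. The resident Kupffer marker Timd4 stood at 0.24 relative to the median gene, Cd68 at 0.02 and Csf1r at 0.20. No marker reached that level among 5 for monocytes, 6 for dendritic cells, 5 for B cells, 6 for sinusoidal endothelium, 6 for stellate cells and 6 for hepatocytes, with list medians of 0.09, -0.03, 0.14, -0.01, -0.01 and 0.09 relative to the median gene. Itgax, an integrin of dendritic cells, stood at -0.45 ± 0.23 (SE), and Lyve1, a sinusoidal endothelial receptor, at 0.51 ± 0.32. The other 5 endothelial markers stood at -0.22 to -0.03 as deposited, with Stab1, a scavenger receptor, the lowest. Spp1, 1 of 5 cholangiocyte markers, stood at 0.55 ± 0.20 (SE). In these centred values a marker's level cannot be summed or read as present or absent.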

How the data were processed

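The authors deposited 1 table of processed values and a value table holding the same numbers, read here as log2 values centred gene by gene. The sources used here name no log base, software, background correction or build. Dim probe sets could not be filtered, since centring removes brightness. Per the labels' protocols, biotin-labelled cDNA from total RNA was hybridised. Titles gave each sample's genotype, which set the groups. All 22203 probe sets with a symbol were fitted with limma 3.58.1 (lmFit, eBayes) in R 4.3.3. The model held genotype alone, and p-values were adjusted by Benjamini-Hochberg. The looser rule joined a fold limit of 1.5 to an unadjusted p under 0.05. The procedure was tested on simulated data.

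The members and lists were chosen with earlier results of these data known. Members named were those at an unadjusted p under 0.05, the 6 ligands and 3 receptors at either end of change, chemokines of known liver interest and any with a value over 1 log2 unit from all others (none was found). Up to 3 genes with the smallest p were taken from each list; other members were added to complete a family. 1 member is not reported here by name or in figures; counts and medians include it. All 50 genes matched the GRCm38.p6 RefSeq table, used for gene order. The number of arrays limits precision.

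Alternatives were quantile normalization, median centring, a mean-variance trend, array weights, robust eBayes, probe sets averaged per gene, the value table, the liver number as a block, masking of isolated values, and leaving out single livers.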

Additional observations from a re-analysis of the deposited data

How the results depend on the processing

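Cxcr6 was lower in HMGB2-KO under all 16 alternatives, at -0.71 to -0.45, with unadjusted p from 0.000782 to 0.0219 in limma. The unadjusted p stayed under 0.05 in 10 of 16 for Cxcl1, 9 for Cxcl17 and 6 for Ccl25, with the sign kept in all. No named member past that level reversed. 0 members passed the adjusted threshold under any alternative; array weights called 6 of all probe sets.

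The count of members at an unadjusted p under 0.05 was 4 as reported, 2 with quantile normalization, 10 with array weights, 1 on centred arrays without WT liver 2, and 1 to 9 when single livers were left out: 9 without WT liver 3, 2 without WT liver 1, 1 without WT liver 2 and 1 without HMGB2-KO liver 2. The count past the looser rule was 1 as reported, 0 with quantile normalization, centring, centring without WT liver 2 or array weights, and 0 to 2 when single livers were left out. It was 0 without WT liver 2 or HMGB2-KO liver 1, since Cxcr6 then lay under the fold limit, and 2 without WT liver 3. Over all probe sets this rule gave 360 (4 higher, 356 lower), 200 with quantile normalization (27 higher, 173 lower), 190 on centred arrays (13 higher, 177 lower), 194 on centred arrays without WT liver 2, 580 with array weights, and 211 to 969 when single livers were left out, the extremes being without WT liver 2 and without WT liver 3. It was 666 without WT liver 1.

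The ligand median relative to the median gene was 0.00 as reported, 0.039 with array weights and -0.016 to 0.087 when single livers were left out. The ligand median minus the receptor median was -0.03 as reported and ran from -0.090 to 0.13 when single livers were left out, positive without WT liver 3 or HMGB2-KO liver 1. The cause of these shifts was not tested.

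Deviations from the genotype mean correlated at 0.02, 0.13 and 0.27 between same-numbered livers 1, 2 and 3. Pairs of HMGB2-KO and WT livers with unlike numbers ran from -0.22 to 0.11. The labels do not say whether a number stands for anything shared, and these correlations cannot decide it. With the replicate block, 3 members reached an unadjusted p under 0.05 and 484 probe sets the looser rule. Ccl25 no longer reached it, with a limma unadjusted p of 0.0809 under the block.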

Other observations

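Spp1, which encodes the secreted cytokine osteopontin and was measured here as a cholangiocyte marker, read 0.75, 0.30 and 0.51 in HMGB2-KO livers 1, 2 and 3, against -0.33, 0.03 and 0.23 in WT livers 1, 2 and 3. Osteopontin attracts macrophages without belonging to the chemokine family. Its change was 0.55 ± 0.20 (SE), with an unadjusted p of 0.0251 and an adjusted p of 0.852 in limma, and 0.57 without WT liver 2. Higher probe sets at an unadjusted p under 0.05 numbered 16 of 22203 as deposited, Spp1 among them, but 229 on centred arrays and 213 without WT liver 2. The cholangiocyte markers Epcam and Sox9 lay the other way, at -0.42 ± 0.23 and -0.34 ± 0.22 (SE), or -0.18 and -0.55 without WT liver 2.

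Within the receptor signalling list, Rgs16, a regulator that shortens G protein signals, varied far more between livers than between genotypes. It read 6.93, 4.64 and 0.09 in HMGB2-KO livers 1, 2 and 3, against 3.21, 6.00 and -0.09 in WT livers 1, 2 and 3. Liver 3 was the lowest in both genotypes. Ltbr, the lymphotoxin beta receptor that induces homeostatic chemokines, read -8.00 in WT liver 2 alone, against -0.58 to -0.26 in HMGB2-KO livers and -0.42 in each of the other WT livers, and its change of 2.52 became -0.01 without that liver.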
